A study of Arabidopsis thaliana with 45 samples.

Results

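The comparison set first true leaves of Arabidopsis thaliana labelled as grown in long days against leaves of the same age labelled short days. Its members were the 6 libraries of wild-type Col-0 at day 23 (D23, written 23-DAG in the labels), chosen by those labels from 45 libraries in 15 groups of 3. Long days were 16 h of light and 8 h of dark, and short days were 8 h of light and 16 h of dark. Both groups were Col-0 by label, with no transgene or allele named for either, and the leaves of the rest of the series were Col-0 of other ages or the line tcx5/6 in long days. The labels do not say whether the 3 replicates of a group came from separate plants, pools or repeated libraries, nor at what hour leaves were taken. The p-values are thus relative to library-to-library spread, part or all of which could be technical. Of 37336 genes in the table, 20439 had a normalised read count of 10 or more in at least 3 of the 6 libraries and were tested.

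Day length reaches leaf gene expression by several routes. Light drives photosynthesis and sets how much carbon a leaf gains and how much starch must last the night, and the circadian clock, a loop of transcription factors that are made at different hours, measures the day. In Arabidopsis, a facultative long-day plant, the clock output CONSTANS (CO) is stable in the light of late afternoon and activates FLOWERING LOCUS T (FT) in the leaf veins, which makes long days promote flowering. Leaf growth, the duration of photosynthetic function and the start of senescence also shift with day length.

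The labels were compared with genes whose level they would bear on. FT was at 41.1, 49.5 and 19.7 normalised reads in the long-day libraries and at 27.0, 82.8 and 30.8 in those labelled short days. These ranges overlapped, and the log2 difference (long minus short, on log2 of the value + 1) was -0.25 ± 0.46 (SE; limma adjusted p = 0.64). At D18 FT averaged 31.3 ± 18.9 (SD, n = 3) in long days and 7.54 ± 5.6 in the other group, and was called higher in long days (1.86 ± 0.64, adjusted p = 0.022 in the limma fit of 18 Col-0 libraries), while at D30 it was at 49.3 ± 23.7 against 19.3 ± 11.4 (adjusted p = 0.089). The change from D18 to D23 did not pass its test (adjusted p = 0.074). CO was at 50.1, 28.3 and 51.5 in long days and at 34.1, 19.0 and 34.8 in the other group (adjusted p = 0.23). The groups again overlapped, and a gene on the opposite strand could have given a share of 88.5% and 77.1% of these reads in a count without strand. QQS, an orphan gene that lowers leaf starch, was at 645, 902 and 935 in long days and listed at 0 in all 3 libraries labelled short days. It was also at 0 in the short-day libraries of every other age, where the long-day group means were 345 to 873.

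The CXC-domain loci AT4G29000 and AT2G20110 are those to which the line name tcx5/6 refers, and both differed between the Col-0 groups. AT2G20110 was at 29.5, 31.8 and 41.6 in long days and at 381, 392 and 425 in the libraries labelled short days. The groups were far apart, 11.6-fold (log2 difference -3.52 ± 0.21, adjusted p = 6.8e-10). At D23 the libraries labelled tcx5/6 held 50.5, 8.46 and 5.47 of it. AT4G29000 lay the other way, at 344, 319 and 346 in long days and at 216, 195 and 152 in libraries labelled short days (0.85 ± 0.15, adjusted p = 1.5e-04), beside 369, 345 and 257 in those labelled tcx5/6. FT was listed at 0 in all 3 libraries labelled tcx5/6 and QQS was at 883 to 985 in them. Day length, a difference in genetic background and an exchange of labels cannot be told apart for these genes. The second group is therefore called the libraries labelled short days throughout. Long days is likewise the label of the first group, shortened for reading.

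**Figure D1:**
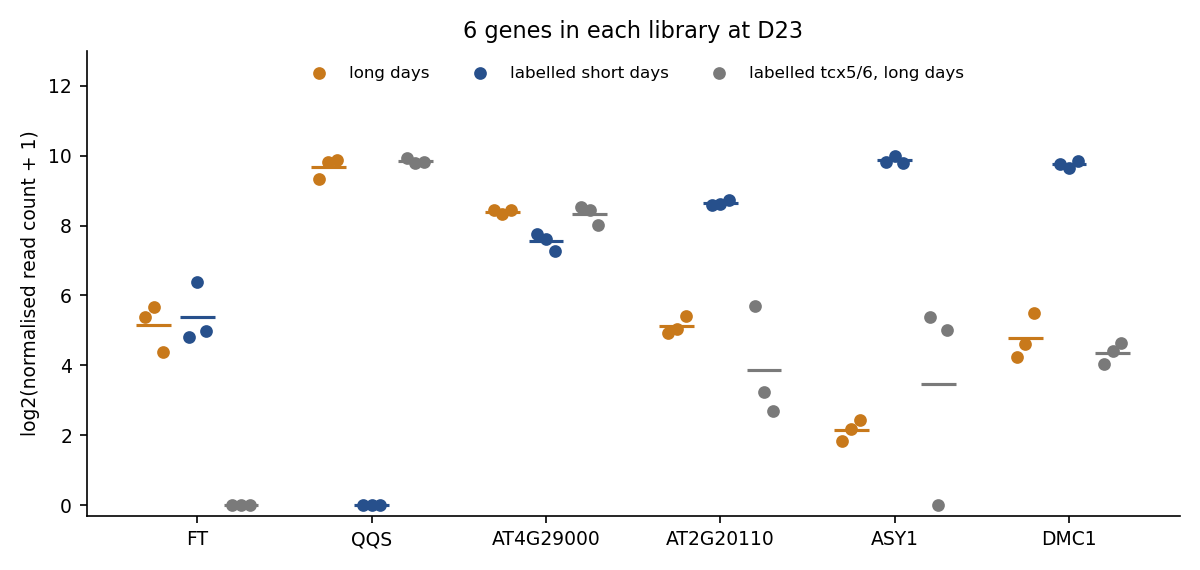
Normalised read counts, as log2 of the value + 1 on the vertical axis, of 6 genes in the 9 libraries of D23; each point is 1 library and each bar the mean of 3. QQS was at 0 only in the libraries labelled short days among these 3 groups, FT only in those labelled tcx5/6, and AT2G20110, ASY1 and DMC1 were highest in those labelled short days.

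Depth was similar over the 6 libraries, at 24398799 to 30151167 reads in genes, with 47.0 to 47.4% of counted reads in no gene and 0.129 to 0.184% ambiguous. Pearson correlations of log2 values were 0.981 to 0.983 within long days, 0.976 to 0.979 within the other group and 0.824 to 0.837 between them. The variance between replicates, divided by that of read counting, was 6.92 for well-covered genes (means of 1000 to 5000 reads) and 3.20 for sparse genes (20 to 100 reads) in long days. The other group gave ratios of 5.63 and 5.54, almost the same at both depths. Counts are therefore also given with those 3 libraries averaged as 1, a setting chosen after the data were seen. In it all spread comes from the 3 long-day libraries, and the lone averaged sample is assumed to vary as they do.

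Most measured genes differed at D23. Limma called 7048 genes higher in long days (34.5% of those tested) and 6571 lower (32.1%) at an adjusted p under 0.05, so 66.6% in all. The median difference over all genes was 0.01 on the log2 scale. With the libraries labelled short days averaged as 1, the counts were 5497 and 4419. The ranges of the groups did not overlap for 7335 genes that were higher (35.9%) and 7049 that were lower (34.5%), 70.4% in all. A change of 2-fold or more was seen for 3172 called genes higher and 2753 lower, and one of 8-fold or more for 479 and 571. Single genes and lists below are read against this background.

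**Figure D2:**
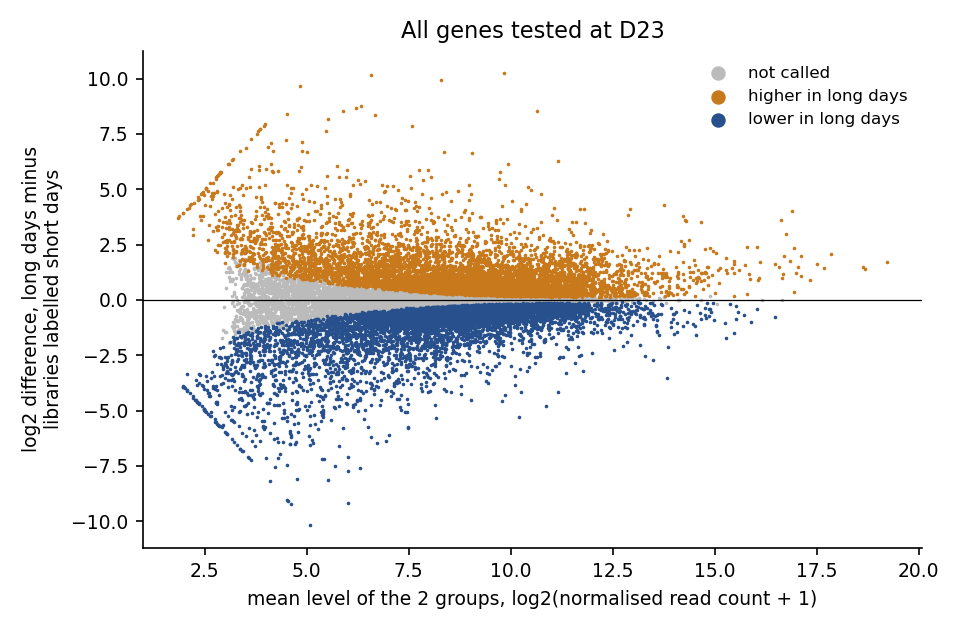
All 20439 genes tested at D23: the horizontal axis is the mean of the groups as log2(normalised read count + 1), the vertical axis the log2 difference, and colours mark the 7048 genes called higher and the 6571 called lower in long days. Called genes lay on both sides over the whole range of levels, and the 2 diagonal edges are genes listed at 0 in every library of 1 group.

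The most extreme genes were of contrasting kinds. GER3, a germin-like protein of the cell wall, was at 2063, 2328 and 2904 in long days and at 0, 0 and 8.10 in libraries labelled short days. The groups differed 901-fold by their means (log2 difference 10.17 ± 0.61, adjusted p = 8.5e-10). ESM1, which steers the breakdown of glucosinolates, was at 33839, 28588 and 30468 against 78.2, 103 and 66.4, a 374-fold gap (8.55 ± 0.12, adjusted p = 9.1e-17). The related transcription factors BZIP34 and BZIP61 were 241-fold and 210.5-fold higher in long days, the first at 1333 to 1692 and the second at 2604 to 2839.5, against at most 12.1 and 24.3. Also among the 10 highest were DIN6, an asparagine synthetase induced in the dark, EPFL9, the peptide stomagen that promotes stomata, XTH4, a wall xyloglucan enzyme, MRU1 and ADS1 (AT1G06080), a fatty acid desaturase.

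Both ends are given among called genes with a RefSeq symbol and a mean of 100 or more. At the low end stood a sucrose-phosphatase gene, SPP1 (AT1G51420), at 0 in every long-day library and at 527, 667 and 607 in the others, at least 506-fold lower in long days (against a floor of 3 reads over the group, which covers counting error only). BSU1, a phosphatase of brassinosteroid signalling, was likewise at 0 in the long-day group and at 502 to 548 in the other one, at least 442-fold lower. PR1, the classic salicylic acid marker, was at 0 against 552, 469 and 604. Neither group of these 3 genes overlapped the other. The remaining low genes were TIL2, a DNA polymerase subunit, ATGLR1.2, a glutamate receptor channel, ASY1, DIP2, MYB112, BSK9 and the senescence marker SAG13.

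Genes at 0 in 1 group were followed over the other ages. Among genes listed at 0 in all long-day libraries of D23 (57 genes), 12 had a mean of 100 or more in the other group, and 11 of the 12 had reads in all 15 libraries labelled short days. Of the 12, 2 were at 0 in all 15 long-day libraries and 8 had a mean under 1 over them. SPP1, BSU1 and PR1 had reads in 3, 5 and 6 of these libraries. In the D23 libraries labelled tcx5/6, 8 of the 12 were at 0 throughout. The log2 difference was -9.74 at D18 and -9.56 at D30 for SPP1, and -9.02 and -9.03 for BSU1. PR1 did change between days, with a log2 difference of -3.07 at D30 and a change of 6.01 from D23 (limma adjusted p = 0.0034). The SPP1 locus AT1G51420 averaged 858 ± 72.5 (SD, n = 3) at D18 and 755 ± 46.8 at D30 in libraries labelled short days, and 0 in long days at both. Conversely 46 genes were at 0 in all libraries labelled short days of D23, and 10 had a mean of 100 or more in long days. QQS was 1 of 3 among those 10 that were at 0 in all 15 libraries labelled short days. The difference at D23 was set against those at D18 and D30 in a fit of 18 Col-0 libraries (21858 genes), which asks whether the gap between day lengths itself changed with age. For QQS it did not pass (difference of the log2 differences -0.08, adjusted p = 0.90 against D18; -0.37 and 0.52 for D30 against D23).

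For many other genes the difference changed between days. It is signed, so larger means a move towards higher levels in long days and smaller a move towards lower ones. The difference was larger at D23 than at D18 for 4729 genes (21.6%) and smaller for 3761 (17.2%), 38.8% in either direction, with a median over all genes of 0.06. From D23 to D30 it became larger for 4286 genes (19.6%) and smaller for 5806 (26.6%), 46.2% in all, with a median of -0.09. That last split rested on the scaling, since it was 5915 larger and 4524 smaller with quantile normalisation, 5293 and 4984 with TMM factors, and 5439 and 4739 in edgeR on recovered reads. CHLI1, a subunit of the magnesium chelatase of chlorophyll synthesis, shows the sequence. Its group means in long days were 10877 ± 2746 (SD, n = 3) at D18, 11348 ± 319 at D23 and 1929.8 ± 215 at D30. In libraries labelled short days they were 10998 ± 110.2, 2283 ± 42.0 and 2616 ± 157. The level in long days at D23 was thus near that of D18, while the libraries labelled short days of D23 were already near the D30 levels.

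**Figure D3:**
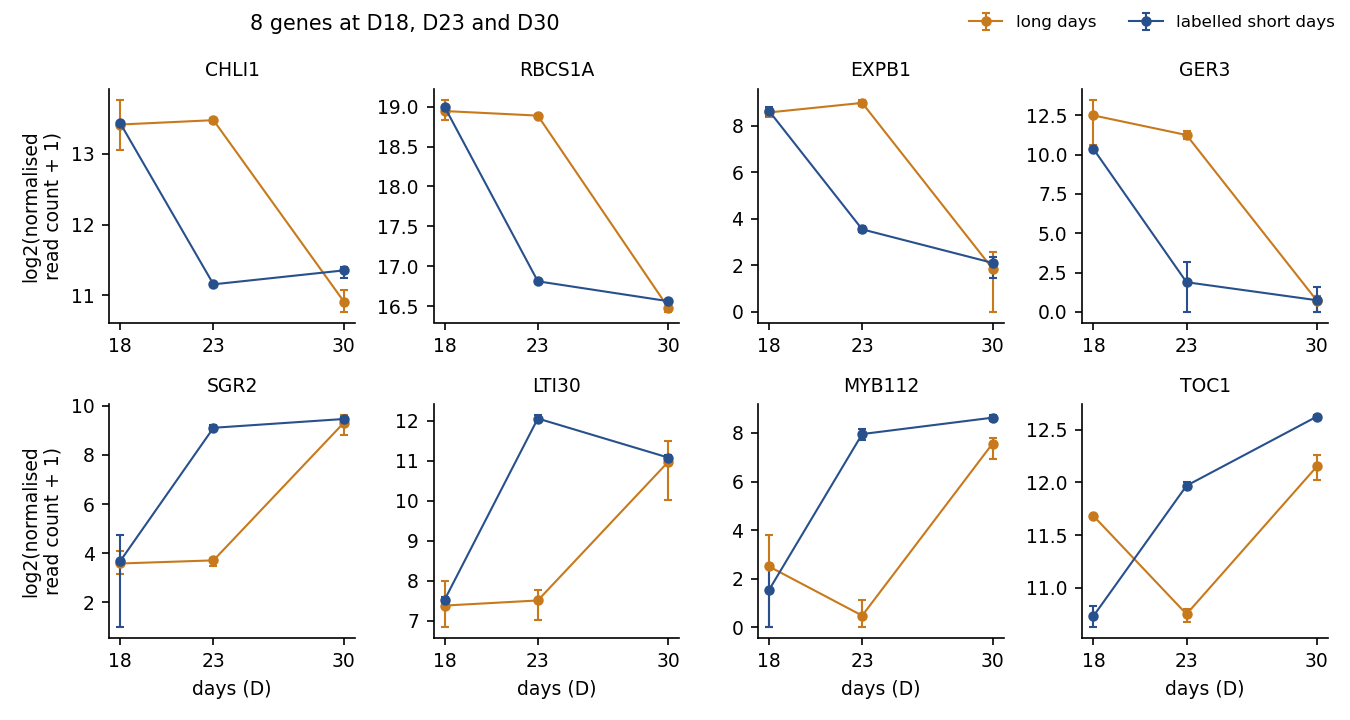
Levels of 8 genes at D18, D23 and D30, as log2(normalised read count + 1); points are means of 3 libraries and bars run from the lowest to the highest library. For 7 of the 8 genes the groups lay far closer at D18 and D30 than at D23, whereas for TOC1 they were apart on each day and changed order between D18 and D23.

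Genes of chlorophyll synthesis were the most uniform group of this kind. All 14 measured members were higher in long days at D23, with a median of 2.0 against 0.01 for all genes (34.5% of which were higher), and their summed level was 270996 to 302177 against 69163 to 69746. The median difference was 0.20 at D18 and 0.25 at D30. The signed difference was larger at D23 than at D18 for 14 of 14 (21.6% of all genes) and smaller at D30 than at D23 for 14 of 14 (26.6%). HEMA1, which makes the first committed precursor, was at 15603, 16826 and 17777 in long days and at 3032, 3265 and 3299.6 in the others (log2 difference 2.39 ± 0.06, adjusted p = 2.5e-14). The groups were 5.23-fold apart. PORB, the light-dependent protochlorophyllide reductase of green leaves, was at 50420.2 to 59659 against 8255 to 8297, and its relative PORA, known from dark-grown seedlings, at 206 to 277 against 7.11 to 11.3. CHLG, the chlorophyll synthase, had the smallest gap of the list at 0.97 ± 0.07.

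Light harvesting followed with 25 of 28 members higher and 3 lower (median 1.46), and a summed level of 6324808 to 6713883 against 1901534 to 1913151. Here the gap was less particular to D23, with medians of 0.66 at D18 and 0.86 at D30. The signed difference was larger at D23 than at D18 for 24 of 28 (21.6% of all genes). It was smaller at D30 than at D23 for 17 of 28 (26.6%). LHCB1.4, an antenna protein of photosystem II, was at 492241, 495993 and 501544 in long days and at 30557, 29981 and 30719 in the other libraries. No library came near the other group, and the ratio was 16.3 (log2 difference 4.03 ± 0.05, adjusted p = 5.7e-17). LHCB1.1 was 7.88-fold higher and LHCB1.2 12.3-fold higher, but reads of these near-identical copies may be shared between them. LHCB1.3, the most abundant copy, was 3.24-fold higher (1.69) and at -0.00 under quantile normalisation, which also left 7 members of the list lower. That scaling gives genes of the same rank the same value in every library. LHCB1.3 had the highest mean of the genes named here in both groups, so -0.00 says little about its gap. The 3 lower members were LHCB4.3, at 402 to 470.2 against 878 to 1030.4, and the early light-induced proteins ELIP1 and ELIP2, pigment-binding proteins of light stress. ELIP1 was at 23.1, 16.5 and 30.7 in long days and at 407, 333 and 382 in the others.

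Carbon fixation went with the antenna. Of 15 genes for Rubisco and the Calvin cycle 14 were higher (median 1.12) and CP12-2, a regulator of the cycle, was lower, at 4986 to 5492 against 10491 to 10940.2. RBCS1A, the main Rubisco small subunit, was at 492401, 486336 and 476488 in long days and at 113792, 115995 and 115050.2 in libraries labelled short days. That is a 4.22-fold gap (2.08 ± 0.06, adjusted p = 1.7e-13), where the groups had stood at 504682 ± 47513 and 522614 ± 4343 at D18 and at 91486 ± 3892 and 96699 ± 1329 at D30. RBCS3B and RBCS2B, close copies, were 5.23-fold and 4.45-fold higher. The signed difference was larger at D23 than at D18 for 14 of the 15 (21.6% of all genes). For 14 it was smaller at D30 than at D23 (26.6%). In bulk leaves, fewer cells of a type and less RNA per cell cannot be told apart.

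Chlorophyll breakdown and senescence genes lay the other way. Of 8 breakdown genes 6 were lower in long days (median -1.38), among 32.1% of all genes, and 1 was higher, NOL, a call lost in most of the alternative settings. STAY-GREEN2 (SGR2) was at 10.3, 13.0 and 13.1 in long days and at 504, 547 and 597 in libraries labelled short days. The groups were 45.3-fold apart (-5.39 ± 0.23, adjusted p = 1.9e-11). In long days it averaged 11.0 ± 4.52 at D18 and 633 ± 172 at D30, and in libraries labelled short days 11.9 ± 12.4 and 704 ± 51.9. NYC1, the chlorophyll b reductase, was at 1917 to 2308 against 5835 to 6117, and PAO, which opens the pigment ring, at 1818 to 2284 against 4641 to 4973. For 7 of the 8 the signed difference was smaller at D23 than at D18 (17.2% of all genes).

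Of 22 measured senescence genes 15 were lower in long days and 3 higher (median -1.47). ORE1, a NAC transcription factor that drives leaf ageing, was at 200.4, 134 and 158 in long days and at 842, 871 and 865 in the other group (-2.40 ± 0.14, adjusted p = 4.6e-10), and NAP, another NAC factor, was at 257 to 298 against 817 to 954. Both groups were apart for both genes. NAC016, NAC046 and ORS1 were also lower, by 5.07, 3.38 and 4.01 on the log2 scale, while NAC055 was not called (0.44, adjusted p = 0.28). SAG12, the late senescence protease, was at 0 in all 6 libraries, and SAG13 was at 0 to 1.18 against 274 to 324. The 3 higher members were the regulator WRKY22, SAG14 and the receptor kinase SARK, while WRKY53 was at 118 to 146 against 129 to 176 (adjusted p = 0.35).

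Autophagy genes, which recycle cell contents in ageing leaves, were lower in long days for 10 of 13 members and higher for 1 (median -0.77). ATG8A was at 409 to 513 against 1427 to 1524. The signed difference was smaller at D23 than at D18 for 11 of the 13 genes (17.2% of all genes). It was larger at D30 than at D23 for 11 (19.6%). Nitrogen remobilization was mixed, with 6 of 15 higher and 8 lower, beside 34.5% and 32.1% of all genes. The cytosolic glutamine synthetases GSR 1 and GLN1;4 were 3.71-fold and 4.2-fold lower in long days, and the asparagine synthetase ASN2 was 3.51-fold higher. MYB112, a regulator of anthocyanin and stress responses, was at 0, 1.18 and 0 in long days and at 209.8, 241 and 289 in libraries labelled short days.

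Genes of cell expansion were high in long days. All 14 measured expansins, which loosen walls, were higher with a median of 2.79, and 13 of 16 xyloglucan endotransglucosylase genes (XTH) with a median of 3.1. EXPB1 was at 464, 557 and 495 in long days and at 12.1, 10.3 and 9.72 in the others, 47.1-fold apart (5.43 ± 0.24, adjusted p = 2.6e-11). Its means had been 379.8 ± 41.5 and 397 ± 51.9 at D18, and were 2.62 ± 2.51 and 3.31 ± 1.38 at D30. EXPA8, EXPA6 and EXPA11 were 11.0-fold to 11.6-fold higher. XTH6 was at 5038, 6319.7 and 5318 against 109, 143 and 119, a 45.0-fold gap. The 1 lower XTH was XTH24, a gene also known to rise in senescence, at 435 to 597 against 1939 to 2018. In the fit of 18 libraries, 11 of 15 expansins had a larger signed difference at D23 than at D18 and 1 a smaller. Of 18 XTH genes 7 had a larger and 5 a smaller one, beside 21.6% and 17.2% of all genes.

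Water channels and the cuticle shared this direction. Of 17 aquaporins 16 were higher (median 1.49), among them the tonoplast channel DELTA-TIP, at 19213, 20959 and 20172 against 259, 222 and 294. The ratio of the means was 77.9, although up to 33.6% of the lower counts could come from a gene on the opposite strand. PIP1C, a plasma membrane channel, was 8.14-fold higher, and its log2 difference was 2.69 at D18 and 3.45 at D30, neither called as a change (adjusted p = 0.18 and 0.074). Of 14 wax genes 13 were higher and none was called lower (median 0.99), with KCS1, a fatty acid elongase, at 3824 to 4591 against 419 to 585.

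Among hormone genes linked to growth, those of auxin and cytokinin were mostly higher. Of 15 auxin response genes 11 were higher and 2 lower (median 1.2). The auxin carrier PIN7 was at 6127 to 6896 against 1447 to 1518, and GH3.3, which conjugates auxin, was lower at 29.6 to 54.2 against 198 to 321. Of 11 cytokinin response genes 8 were higher and 2 lower (median 0.69), with CKX4 3.71-fold and ARR6 2.62-fold higher, though up to 47.6% of the lower ARR6 level could be opposite-strand reads. Gibberellin genes split, 5 of 10 higher and 5 lower. The growth repressors GAI and RGA were 2.43-fold and 1.77-fold higher, and GID1B, a gibberellin receptor, was 4.63-fold lower. Among 13 leaf growth regulators 8 were higher and 2 lower, beside 34.5% and 32.1% of all genes. The higher ones included ANT, which prolongs organ growth, at 106 to 158 against 30.8 to 50.9. Another was CYCD3;1, at 153 to 240.3 against 25.9 to 46.9.

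Markers of leaf cell types differed by list, and their counts stand beside 34.5% of all genes higher and 32.1% lower. All 4 measured epidermal genes were higher (median 1.27; summed level 19249 to 21092 against 8208 to 8524), with the epidermal regulators ATML1 and PDF2 2.40-fold and 2.02-fold higher. Vascular genes were higher for 8 of 9 (median 1.71), both in phloem, where SUC2 was at 14150.4 to 15045 against 6937 to 7106, and in xylem, where XCP2 was at 665 to 928 against 81.0 to 133. In the stomatal lineage 4 of 8 were higher and 1, the guard cell channel KAT1, was lower. FAMA was at 504 to 631 against 233 to 293, and EPFL9 at 157, 161 and 184 against 2.84, 0 and 0. The myrosinases TGG1 and TGG2 of myrosin and guard cells were 11.7-fold and 14.4-fold higher, while TRY and ETC3, repressors of trichome fate, were lower. None of 6 shoot meristem genes reached the filter. Epidermal and vascular markers were thus higher in the same libraries as the photosynthesis genes, stomatal and trichome markers were mixed, and the part of cell composition in the other results was not tested.

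**Figure D4:**
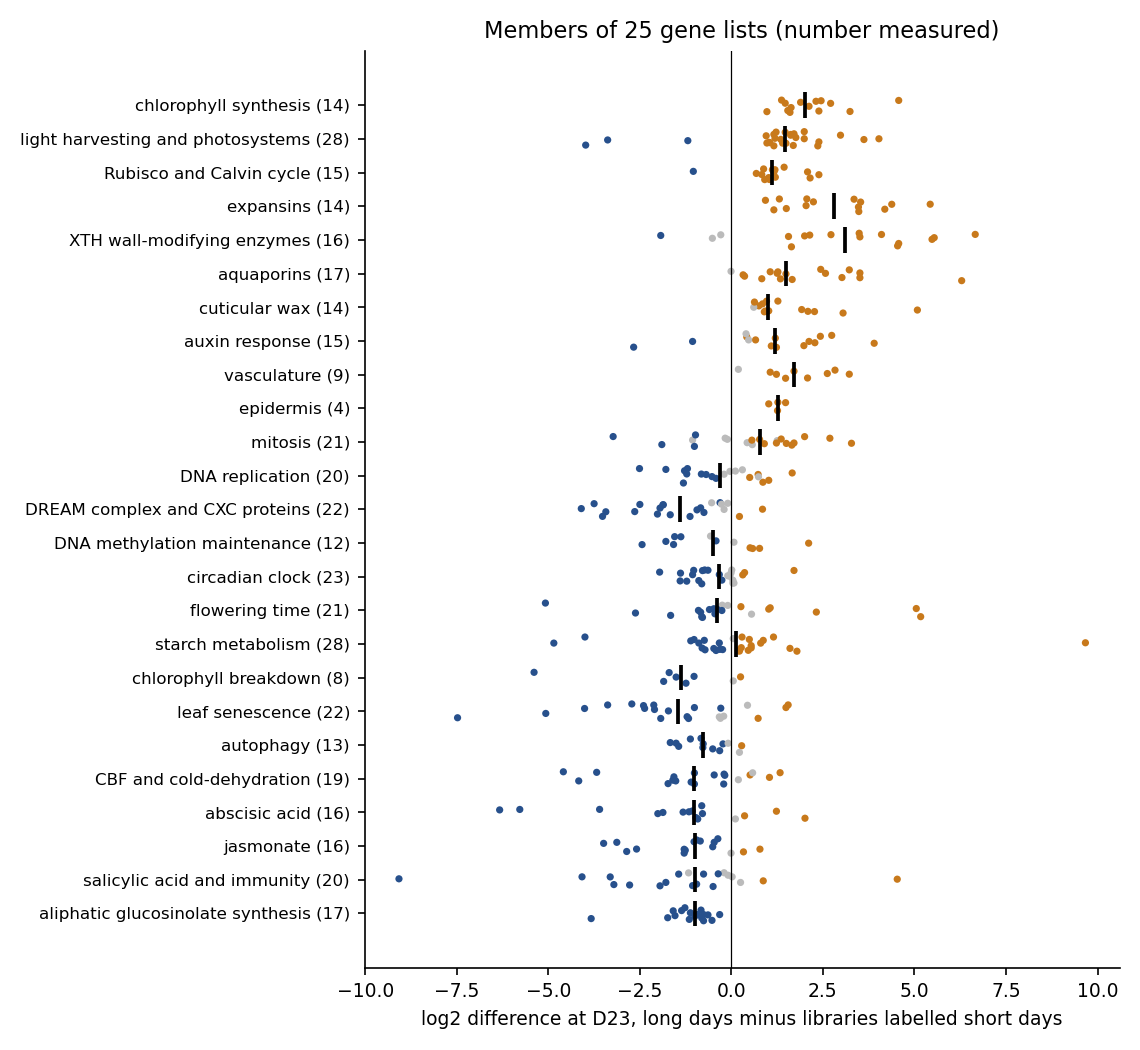
Log2 differences at D23 (long days minus libraries labelled short days) of the members of 25 gene lists; each point is 1 gene, coloured orange where called higher, blue where called lower and grey where not called, and each black bar is the median. Chlorophyll synthesis, expansins, wax, epidermis and aquaporin genes lie to the right, and aliphatic glucosinolate, DREAM and senescence genes mostly to the left.

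Cell division genes did not share 1 direction. Of 21 mitosis genes 11 were higher and 4 lower (median 0.77), with the cyclin CYCB1;4 at 65.5, 101 and 90.9 against 19.9, 15.5 and 5.67. CDKB1;1 lay below, at 25.7 to 30.7 against 237 to 322, but reads from the opposite strand could account for all of its long-day level. Of 20 DNA replication genes 5 were higher and 10 lower (median -0.31), beside 34.5% and 32.1% of all genes. TSO2, a ribonucleotide reductase subunit, was at 967 to 1031 against 2171 to 2364, and CDC6, which licenses origins, at 283 to 308 against 664 to 710.5. Histones divided into 5 higher and 8 lower of 16, beside 34.5% and 32.1% of all genes. The drought-inducible linker histone HIS1-3 was at 113, 122 and 125 in long days and at 635, 576 and 688 in the others, whereas at D18 its long-day level had been the higher one (344 ± 139 against 33.6 ± 13.0).

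The DREAM complex, which joins retinoblastoma, E2F, MYB and CXC proteins to hold cell-cycle genes down, gave 16 of 22 members lower in long days and 2 higher (median -1.40). ALY1 was at 56.5, 53.0 and 52.5 in long days and at 907, 981 and 942 in libraries labelled short days. The groups were 17.5-fold apart (-4.10 ± 0.14, adjusted p = 1.0e-12). E2FC, a repressing E2F, was 6.24-fold lower and the retinoblastoma protein RBR1 was at 788 to 899.9 against 1552 to 1725. The neighbouring days gave similar medians, -1.22 at D18 and -1.20 at D30. The signed difference was larger at D23 than at D18 for 2 of 22 members and smaller for 3 (21.6% and 17.2% of all genes). The list holds AT2G20110 and AT4G29000 themselves.

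DNA methylation genes, some of which DREAM represses in Arabidopsis, were mixed. Of 12 maintenance genes 6 were lower and 4 higher (median -0.49), beside 32.1% and 34.5% of all genes. CMT3, which methylates CHG sites, was at 166, 192 and 190.5 against 968, 1031 and 982, a 5.44-fold gap (-2.44 ± 0.11, adjusted p = 1.9e-11). Its log2 difference was -2.29 at D18 and -4.87 at D30. The change from D23 to D30 passed its test (-2.43, limma adjusted p = 3.1e-06). That change passed towards lower values for 8 of the 12 genes (26.6% of all genes). DDM1, a chromatin remodeller, was 3.46-fold lower and MET1, the CG methyltransferase, 1.34-fold lower (708 to 753 against 887 to 1055). CMT2, a relative of CMT3 for CHH sites, was 4.26-fold higher. In RNA-directed methylation 4 of 20 were higher, 6 lower and 10 not called (median -0.04), shares no greater than over all genes. The members included CHR40, a chromatin factor of the CLASSY family, at 0 to 3.85 against 216 to 243 and AGO6 at 10.6 to 35.0 against 349.9 to 409, both lower, and AGO4, which binds small RNAs, at 814 to 898 against 404 to 489, higher. Of 7 demethylation genes 2 were higher, 2 lower and 3 not called (median -0.01), also no greater shares than over all genes. The demethylase ROS1 was lower, at 1184 to 1545 against 2786 to 2799, and DME, its relative, and IDM1 were higher by 0.48 and 0.41 on the log2 scale.

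Meiosis genes, a list added after their values were seen and given without a test of the list, were high in the libraries labelled short days. Of 19 measured, 18 were lower in long days (median -3.83), and their summed level was 351 to 456 against 5475 to 5778, with 352 to 376 in the libraries labelled tcx5/6. DMC1, the recombinase of meiotic crossing over, was at 18.0, 23.6 and 43.8 in long days and at 873, 802 and 911 in the others. Its ranges were far apart. ASY1, a protein of the meiotic chromosome axis, was at 2.57 to 4.38 against 876 to 1014, and a gene on the opposite strand could have given all of the first level but at most 10.3% of the second. The medians at D18 and D30 were -3.39 and -4.25. Of 3 flower genes that reached the filter 2 were also lower in long days: AG was at 18.8 to 30.8 against 67.6 to 107 (-1.77, adjusted p = 2.8e-04) and SEP3 at 18.0 to 59.1 against 71.6 to 105 (-1.29, adjusted p = 0.0076). The part of flower tissue in the meiosis values was not tested.

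The circadian clock had 3 members higher, 13 lower and 7 not called of 23, with a median of -0.33. With the hour of sampling not given in the sources used here, day length and hour cannot be told apart for these genes. TOC1, an evening repressor of the loop, was at 1748, 1781 and 1642 in long days and at 4098, 3914 and 4014 in libraries labelled short days. The groups were 2.33-fold apart (-1.22 ± 0.06, adjusted p = 3.9e-11). Its partner PRR3, which stabilises TOC1, was lower by 1.96 on the log2 scale and CHE, a repressor of CCA1, was higher by 1.71. The morning genes CCA1 and LHY were at 547 to 646 against 1199 to 1303 and at 77.7 to 122 against 236 to 324.

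Evening genes did not move as 1 group. ELF4 of the evening complex was at 876 to 1015 against 1799.9 to 2085 (-1.03), while LUX was lower by 0.26 (adjusted p = 0.0078), a call lost with the libraries labelled short days as 1, and ELF3 was at 1180.1 to 1339 against 1264 to 1349 (adjusted p = 0.63). GI, which links the clock to CO, was at 5202 to 5656 against 6554 to 6966 (-0.33 ± 0.05, adjusted p = 4.2e-05). FKF1, a blue-light receptor that clears repressors of CO, was at 2293, 2328 and 2552 against 3888, 4126 and 3885. PRR9, PRR7, PRR5, ZTL, LKP2 and BOA were not called, with PRR5 at 4404 to 4491 against 4281 to 4393 and a log2 difference of 0.04, or -0.30 under quantile normalisation. LNK2 was called higher by 0.31, a difference of -0.02 under that scaling.

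The order of the clock genes was not that of the neighbouring days. PRR9 had been at 119 ± 18.7 in long days and 839 ± 26 in libraries labelled short days at D18, and was at 914 ± 43.5 and 921 ± 46.8 at D23. TOC1 had been higher in long days at D18 (3287 ± 17.0 against 1702 ± 118) and lower at D23, and the change passed its test (-2.17, adjusted p = 2.8e-11). Of 23 clock genes 7 had a larger signed difference at D23 than at D18 and 10 a smaller (21.6% and 17.2% of all genes). From D23 to D30 it was larger for 17 and smaller for 3 (19.6% and 26.6%). Of 11 clock outputs 4 were higher and 5 lower at D23, beside 34.5% and 32.1% of all genes. The RNA-binding proteins CCR1 and CCR2 were 1.60-fold and 1.33-fold lower, and CDF1, a repressor of CO, was 1.61-fold higher.

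The evening element AAAATATCT, to which clock MYB factors such as CCA1 bind, was sought on both strands in the 250 bases before each RefSeq gene start (build TAIR10.1). It was present before 5 of 23 clock genes (21.7%) and 4 of 11 clock outputs (36.4%), against 503 of 20345 tested genes with such a window (2.47%), 2.13% of those called higher and 3.1% of those called lower. TOC1 and FKF1, which were lower, and PRR5, which was not called, are shown because all 3 carry it, and capitals mark the element as read on this strand, 5′ to 3′ towards the gene start.
TOC1 (chr5:24674713-24674962, + strand): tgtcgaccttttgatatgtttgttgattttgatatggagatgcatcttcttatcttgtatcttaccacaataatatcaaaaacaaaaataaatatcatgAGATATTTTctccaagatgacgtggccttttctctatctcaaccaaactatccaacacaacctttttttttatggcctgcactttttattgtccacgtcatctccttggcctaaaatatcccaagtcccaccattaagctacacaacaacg
FKF1 (chr1:25508389-25508638, + strand): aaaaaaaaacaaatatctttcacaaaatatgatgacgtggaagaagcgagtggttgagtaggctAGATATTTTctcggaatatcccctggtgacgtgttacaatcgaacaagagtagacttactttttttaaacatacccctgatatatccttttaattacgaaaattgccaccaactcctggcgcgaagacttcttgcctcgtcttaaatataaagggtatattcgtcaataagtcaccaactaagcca
PRR5 (chr5:8358547-8358796, - strand): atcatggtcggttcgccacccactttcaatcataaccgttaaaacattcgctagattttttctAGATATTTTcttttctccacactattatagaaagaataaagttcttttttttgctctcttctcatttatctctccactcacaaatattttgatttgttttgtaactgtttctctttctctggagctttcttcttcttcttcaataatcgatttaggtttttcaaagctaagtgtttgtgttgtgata
The element begins at -151, -186 and -187 from the gene start in these windows, and at -53 in LUX and -43 in BOA, where a G-box (CACGTG) also occurs once. A match is a string of letters, and occupancy of these windows was not measured.

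Flowering time genes were lower for 12 of 21 measured and higher for 6 (median -0.39), with 7 lower once the libraries labelled short days were averaged as 1. SOC1, the integrator downstream of FT, was at 2055, 1739.5 and 1721 in long days and at 3357, 3466 and 3454 in libraries labelled short days. The groups were 1.86-fold apart (-0.90 ± 0.07, adjusted p = 1.4e-08). FD, the partner of FT at the meristem, was at 40.0 to 70.7 against 154 to 177, and FUL at 33.0 to 59.1 against 71.1 to 87.1, a call lost without long-day replicate 2 or 3 or without replicate 2 or 3 labelled short days (limma adjusted p of 0.051 to 0.11).

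Among repressors of flowering MAF5, an FLC relative, was at 24.4, 20 and 46.0 in long days and at 976, 1009.7 and 977 in the others, 32.8-fold apart (-5.08 ± 0.24, adjusted p = 5.7e-11). The values at D18 and D30 were near these, with 865 ± 57.5 at D18 and 933 ± 91.8 at D30 in libraries labelled short days against 50.6 ± 54.0 and 37.2 ± 7.83 in long days. MAF4 was lower at 12 to 74.2 against 158 to 213, and MAF1, MAF2 and MAF3 by 0.26 to 0.48 on the log2 scale. FLC itself was higher in long days but uneven, at 15.4, 141 and 41.6 against 0, 1.72 and 0 (5.05 ± 0.81, adjusted p = 5.2e-05), with opposite-strand reads able to give 33.5% of the long-day level. TEM1 and TEM2, which repress FT, were 2.04-fold and 5.02-fold higher, and SVP was not called (adjusted p = 0.10). AGL24, a promoter of flowering, was at 107, 111 and 132 against 7.11, 0 and 3.24. TSF, SMZ, SPL15 and AGL17 did not reach the filter.

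**Figure D5:**
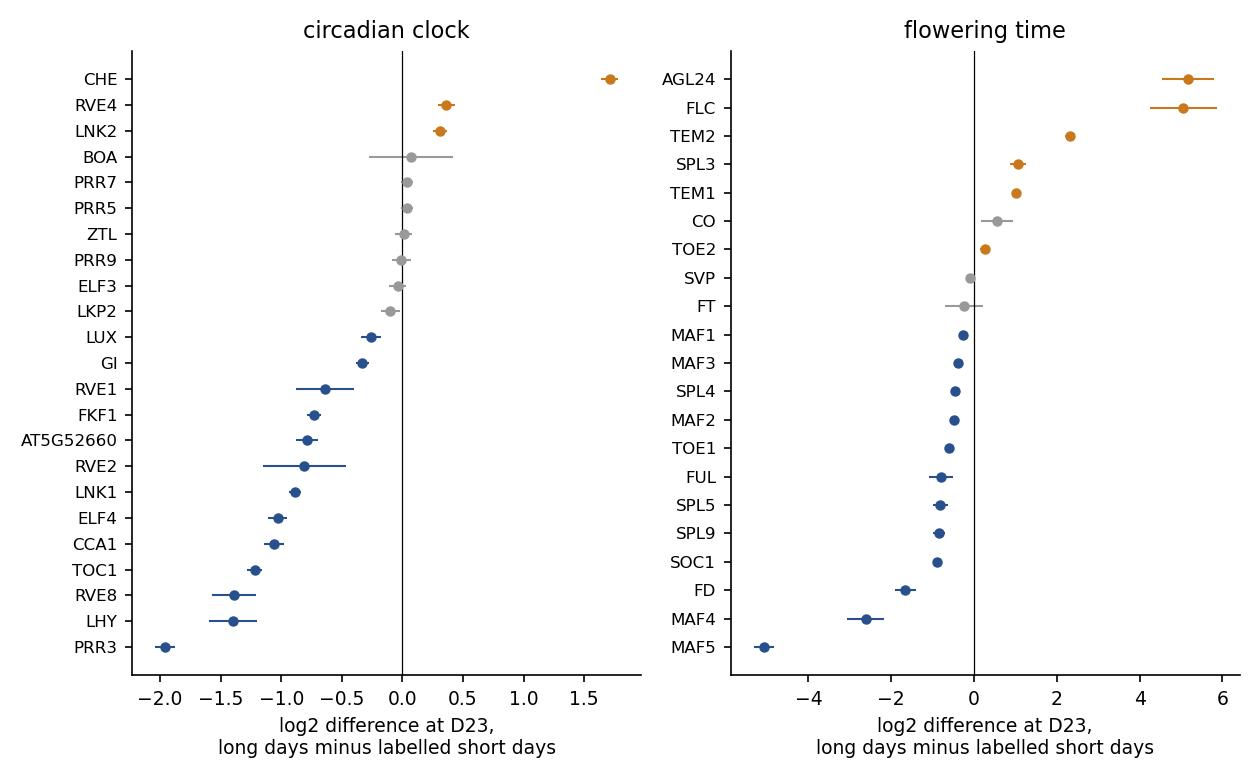
Log2 differences at D23 (long days minus libraries labelled short days, bars ± SE of the fit on 3 against 3 libraries) of the 23 clock genes and the 21 measured flowering time genes, ordered by size. Orange marks genes called higher, blue those called lower and grey those not called; FT, CO and SVP are grey, and MAF5, FLC and AGL24 lie farthest from 0.

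Light signalling genes were called about as often as all genes. Of 23 members 10 were higher, 5 lower and 8 not called (median 0.04). PHYA and PHYB were higher by 0.47 and 0.22 on the log2 scale and PHYD was 1.94-fold lower, at 454 to 528 against 937 to 953. The growth-promoting factors PIF4 and PIF5 were at 9100.4, 9323 and 9276 against 5559, 5181 and 5588, and at 5984 to 6218 against 3877 to 4090.4. Their groups were apart, by 1.7-fold and 1.54-fold, with no called change of the difference from D18 (adjusted p = 0.65 and 0.57). The shade-responsive genes HFR1 and ATHB2 were 2.15 and 0.88 higher on the log2 scale. HY5, a promoter of light responses, was at 34.7 to 88.3 against 122 to 139.

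Starch genes went both ways, 14 higher and 13 lower of 28 (median 0.12). Among enzymes of synthesis APL1 was at 8603 to 9500.0 against 4035 to 4194 and SS1, SS2 and SS3 were higher by 0.54, 0.49 and 0.54 on the log2 scale, whereas GBSS1, which makes amylose, was at 228 to 284 against 499 to 540.5. Among those of breakdown the β-amylases BAM3 and BAM1 were lower (6015 to 7843 against 14059.8 to 14939 for the first), SEX4 was lower by 0.72, and the phosphorylase PHS1 (AT3G29320) was 3.02-fold higher. A gene on the opposite strand could have given up to 34.4% of the reads of APL1 and 19.7% of those of BAM3. GPT2, a sugar phosphate carrier induced by surplus sugar, was at 1.28 to 7.66 against 67.3 to 91.5.

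Genes of dark and sugar starvation were higher for 11 of 17 and lower for 4 (median 0.86). DIN10, an oligosaccharide-cleaving enzyme of dark-treated leaves, was at 4986, 4261 and 4355 in long days and at 595, 454 and 452 in the others, 9.06-fold apart (3.19 ± 0.10, adjusted p = 3.9e-13). It had been farther apart at D18, at 62703 ± 10506 against 4318 ± 242. Of the list, 12 of 19 members had a smaller signed difference at D23 than at D18 (17.2% of all genes). DIN6 averaged 7557 ± 2872 at D18 and 596 ± 84.7 at D23 in long days. BCAT2, which degrades branched-chain amino acids, lay below in long days (71.9 to 100.1 against 916 to 1099.9), where reads of the opposite strand could fill its long-day level. Of 16 sugar transporters 8 were higher and 3 lower, beside 34.5% and 32.1% of all genes. The hexose carrier STP1 was at 5344 to 6174 against 1205 to 1366, and SUC2, which loads phloem, was 2.09-fold higher. STP13, a stress-inducible carrier, was 2.23-fold lower.

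Genes of cold and dehydration were lower in long days for 14 of 19 and higher for 3 (median -1.01). LTI30, a dehydrin, was at 195, 217 and 129 in long days and at 4265, 4539.8 and 3997 in libraries labelled short days. The groups were 23.7-fold apart (-4.59 ± 0.14, adjusted p = 3.8e-13). Its means had been 165 ± 76.6 and 183 ± 12.7 at D18, and were 2010.3 ± 935 and 2166 ± 105 at D30. GOLS2, which makes the protectant galactinol, was at 195 to 396 against 4996 to 5333, and ERD10 and KIN2 were 2.96-fold and 2.86-fold lower. The signed difference was smaller at D23 than at D18 for 12 of 19 (17.2% of all genes).

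Abscisic acid genes were lower for 12 of 16 and higher for 3 (median -1.02), beside 32.1% and 34.5% of all genes. The same shares apply to the jasmonate and salicylic acid genes below, of which 2 each were higher. RD29B, a late marker of the hormone, was at 10.3, 2.36 and 9.85 in long days and at 417, 411 and 394 in the others, and the phosphatase ABI1, which dampens the signal, was 1.89-fold lower. Jasmonate genes were lower for 13 of 16 (median -0.98), or 7 with the libraries labelled short days as 1. AOC1, an enzyme of jasmonate synthesis, was at 383, 393 and 442 against 3579.8, 3529 and 3533, 8.73-fold apart (-3.13 ± 0.07, adjusted p = 1.8e-14). Salicylic acid and immunity genes were lower for 13 of 20 (median -1.01), or 8 in that setting, with PR2 at 129 to 172 against 1032 to 1108 and PAD4 2.7-fold lower. Their median difference was -3.28 at D18, and the signed difference was larger at D23 than at D18 for 10 of 22 (21.6% of all genes). Ethylene genes divided, 5 of 12 higher and 4 lower, beside 34.5% and 32.1% of all genes.

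All 17 genes of aliphatic glucosinolate synthesis, the methionine-derived defence compounds, were lower in long days (median -1.0; summed level 52757 to 58321 against 106811 to 108559). AOP2 was at 974, 1197 and 1163 in long days and at 3573, 3621 and 3946 in the other group. The groups were 3.34-fold apart (-1.74 ± 0.08, adjusted p = 2.4e-11), and the log2 difference at D18 was -4.26. BCAT4 and BASS5, early steps of the pathway, were 2.21-fold and 3.0-fold lower. Indole glucosinolate genes were higher for 5 of 10 and lower for 3, beside 34.5% and 32.1% of all genes. CYP79B2 and CYP79B3, which start the pathway from tryptophan, were 2.14-fold and 2.32-fold higher.

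Flavonoid genes were lower for 10 of 15 and higher for 4 (median -2.20). The 2 kinds of step differed: the entry enzymes PAL1 and PAL2 of phenylpropanoid synthesis were at 1601 to 1775 against 333 to 377 and at 2797 to 2998 against 506 to 593, while CHS, the first enzyme of flavonoids, was at 131, 120.1 and 125 against 637, 673 and 667. All 3 pairs of ranges were apart. In the libraries labelled tcx5/6 and long days, CHS was at 6117 to 8219.8.

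Touch and immediate-early stress genes were higher for 10 of 16 and lower for 2 (median 0.81), or 5 higher in the setting with 1 library. XTH22, a touch-induced wall enzyme, varied widely in long days at 1028, 445 and 257, and was at 46.9, 51.7 and 30.8 in the others. At D18 its means were 33849.6 ± 6943 and 4050.1 ± 191, and at D30 its log2 difference was -2.99. The direction of the list differed at D30, with a median of -3.64, beside 0.25 at D18. The signed difference was smaller at D30 than at D23 for 16 of 16 members (26.6% of all genes). Of 9 heat shock genes 4 were lower and none was called higher, with HSP90.1 at 73.4 to 123 against 281 to 318. Antioxidant enzymes split into 5 higher and 6 lower of 15, beside 34.5% and 32.1% of all genes. The copper-zinc superoxide dismutase CSD2 of chloroplasts was at 1536 to 3261 against 184 to 250.3, and the cytosolic APX1 was 1.78-fold lower. Phosphate and sulfate starvation genes divided 5 to 5 of 13, beside the same shares. Among 9 common reference genes 5 were higher and 2 lower (median 0.31), with UBQ10 at 39056 to 41306 against 58295 to 59506 and TUB2 1.7-fold higher.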

How the data were processed

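Poly-A RNA of first true leaves was extracted with a column kit and made into non-stranded Illumina libraries, per the labels' protocols. Trim Galore 0.6.6, cutadapt, STAR 2.7.1a, HTSeq 2.0 and DESeq2 1.40.1 were used, per the submitters' processing notes; the genome build, annotation and strand setting are not given in the sources used here. The authors deposited 1 table of signal values, read counts per gene divided by 1 size factor per library. Every value of the 6 libraries was a whole multiple of 1 read within 0.01 (100.0%), so whole reads were recovered for edgeR and DESeq2. The 5 summary entries (no gene, 47.0 to 47.4% of reads, and the like) were left out.

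Values were tested as log2(value + 1) for genes with 10 or more in at least 3 of the 6 libraries. Limma 3.58.1 (R 4.3.3, trended variance) compared 3 with 3 libraries, with Benjamini-Hochberg adjustment over all 20439 genes and a threshold of 0.05. A second limma fit of 18 Col-0 libraries tested changes of the difference between D18, D23 and D30. Standard errors are those of the fits, fold changes are ratios of group means, and each log2 difference understates the change of low genes. The scripts were checked on simulated data. Alternatives were edgeR 4.0.16, DESeq2 1.42.0, TMM and quantile scaling, other pseudocounts and filters, a replicate block, all 15 groups in 1 fit, leaving out each library, and, added after the data were seen, the libraries labelled short days averaged as 1. Same-numbered libraries did not deviate together (correlations 0.003 to 0.01 over 3 pairs), so numbers were not used as pairs. Read counting covers counting error only.

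Genes named were the 10 highest and 10 lowest called genes with a RefSeq symbol, a mean of 100 or more and no overlap, for every list at most 4 called members with the smallest adjusted p, all clock and flowering genes, a few genes tied to the labels, and the 5 highest and 5 lowest changes from D18 to D23. Other list members were picked as examples after their values were seen. The members and lists were chosen with earlier results of these data known. Of 37336 genes, 37051 matched RefSeq, and promoters were read from TAIR10.1, which may not be the build of the authors. Genes that overlap another on the opposite strand, and near-identical copies, cannot be separated in these counts.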

Additional observations from a re-analysis of the deposited data

Results flagged for a closer look

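The difference between long days and libraries labelled short days changed from D18 to D23 for many genes, by limma's test of the change itself over 21858 genes. It was larger at D23 for 4729 and smaller for 3761, and from D23 to D30 it was larger for 4286 and smaller for 5806. Among genes with a symbol and a mean of 100 or more in at least 1 group, the change of the log2 difference from D18 to D23 was highest for GER3, a germin-like protein, at 8.48. BZIP34 followed at 7.33, GH9B8, a glycosyl hydrolase, at 6.56, GH3.9, of a family that conjugates auxin, at 5.99, and BZIP61 at 5.93. It was lowest for MYB112 at -8.01. CIPK25, a calcium-regulated kinase, was at -7.16, DAA1 at -6.94, NUDT24, a Nudix hydrolase, at -6.40 and AACT1 (AT5G61160), an acyltransferase, at -6.25. Groups of 3 libraries are too small for a test of single outlying libraries.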

How the results depend on the processing

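The number of calls depended most on which libraries set the spread. With all 15 groups in 1 fit, 4515 genes were higher and 4138 lower at D23, the difference was larger at D23 than at D18 for 2637 and smaller for 2023, and it was larger at D30 than at D23 for 2548 and smaller for 3767. With the libraries labelled short days averaged as 1, 5497 were higher and 4419 lower. Leaving out each library gave 6517 to 6745 higher and 6050 to 6295 lower, 4261 to 5080 larger and 3374 to 4133 smaller from D18 to D23, and 3844 to 4783 larger and 5347 to 6373 smaller from D23 to D30. A replicate block gave 7060 higher and 6566 lower, 4686 and 3733 from D18 to D23, and 4223 and 5756 from D23 to D30. edgeR called 6767 higher and 6820 lower, and DESeq2 6726 and 6593. Over 248 named genes, 4369 of 4453 alternative values kept their side of the threshold and, where called, their direction. A turn of direction between uncalled values was not counted. Of the rest, 76 lost the call and 3 gained it. Another 5 turned direction with a call in the main or the alternative setting, all under quantile normalisation: LHCB1.3 at -0.00, LNK2 at -0.02, PRR7 at -0.29, PRR5 at -0.30 and ZTL at -0.17. That scaling gives genes of the same rank the same value, so the value of LHCB1.3 says little about that gene. For the other genes the cause was not tested. Of the named genes, 35 changed call in the fit of all 15 groups and 13 with the libraries labelled short days as 1. Low counts limit genes such as FT and FLC, whose libraries of 1 group varied widely.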
